A study of Mus musculus with 24 samples.

Results

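The 47 interferon-stimulated genes described here are a named list of genes that interferons are known to switch on, taken from a table of 43629 genes and matched to it by GENCODE M21 symbol. Each of the 47 was found under a single identifier. They were followed by RNA sequencing in mouse cells of an acute myeloid leukaemia driven by the fusion oncogene MLL-AF9, with Cas9, the nuclease that cuts DNA where a guide RNA directs it. The question the design poses is how transcripts respond when members of the DOT1L complex are targeted. DOT1L methylates histone H3 within transcribed genes, and MLLT10, MLLT1 and MLLT6 are proteins known from that complex. The 24 libraries formed 8 groups of 3: a non-targeting control (NT), a DOT1L knockout, and MLLT10, MLLT1 and MLLT6 knockouts with 2 guides each. Every group, the control included, had Cas9 and a lentiviral guide delivered at an MOI of 0.3, then puromycin at 2 ug/ml for 72 hours from 48 hours after transduction. RNA was harvested on day 9 in all groups. The labels give DOT1L and the control no further guide group, and no guide sequence was used here.

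Interferons are secreted proteins that bind receptors on the cell surface and activate JAK kinases, which phosphorylate STAT proteins. STAT proteins join IRF9 to form the complex ISGF3, which binds a promoter element named ISRE, while pairs of STAT proteins bind a separate element named GAS. The genes switched on include sensors of viral RNA, enzymes that degrade or edit nucleic acids, GTPases that act on vesicles and virus particles, membrane proteins that hinder virus entry, and the transporter that loads class I antigen presentation. Several of these genes are also expressed in blood cells without added interferon.

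Promoter sequence is shown for the IFITM genes, which are neighbours on mouse chromosome 7. Of these, Ifitm1, Ifitm3 and Ifitm6 were each called against the control in some knockout, and Ifitm2 was not. Isg15 and Ifit1 are shown because they are textbook ISRE genes that were nearly silent here. The stretches are RefSeq promoter windows of the assembly GRCm38.p6 (mm10), written 5′ to 3′ on each gene's strand. Capitals mark the ISRE core GAAANNGAAA on either strand, where it appears as TTTCNNTTTC on the other. The stretch of Ifitm3 is shorter and begins at the RefSeq start, where its matches lie. The stretches are Ifitm1, chr7:140967966-140968065, plus strand; Ifitm2, chr7:140955962-140956061, minus strand; Ifitm3, chr7:141010716-141010744, minus strand; Ifitm6, chr7:141016893-141016992, minus strand; Isg15, chr4:156200819-156200918, minus strand; and Ifit1, chr19:34640779-34640878, plus strand.
Ifitm1: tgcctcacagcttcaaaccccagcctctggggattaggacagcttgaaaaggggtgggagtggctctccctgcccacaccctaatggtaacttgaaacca
Ifitm2: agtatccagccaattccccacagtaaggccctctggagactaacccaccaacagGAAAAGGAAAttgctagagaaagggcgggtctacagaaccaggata
Ifitm3: agGAAAAGGAAActtctgaGAAACCGAAA
Ifitm6: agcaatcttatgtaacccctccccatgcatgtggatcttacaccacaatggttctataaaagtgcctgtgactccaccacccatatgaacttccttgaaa
Isg15: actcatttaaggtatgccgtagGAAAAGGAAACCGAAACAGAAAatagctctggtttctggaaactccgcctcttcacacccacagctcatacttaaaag
Ifit1: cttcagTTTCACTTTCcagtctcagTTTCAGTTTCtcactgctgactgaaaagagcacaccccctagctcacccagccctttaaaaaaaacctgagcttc

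The ISRE core was found in the windows of 20 of the 36 members that had one (55.6%), against 3.99% of 27025 genes with a window of 250 bases before to 50 bases after the start. Among members with enough counts to be tested, 13 of 24 held it, and among those too low to test, 7 of 12 did. Isg15 held 3 overlapping matches, Ifit1 and Ifitm3 held 2 each, and Ifitm2 held 1. The whole windows of Ifitm1 and Ifitm6 held no match. The GAS core TTCNNNGAA, searched on both strands, was in the windows of 13 members (36.1%) against 9.55% of genes, Ifitm3 and Ifitm6 among them. A base can belong to a match of each motif, as in Ifitm3, where the GAS match overlaps an ISRE match. A match is a string of letters, not a measured site. The RefSeq start lay 855 bases from the start of the GENCODE gene for Ifitm1, 1032 for Ifitm6 and 26 for both Ifitm2 and Ifitm3, so the missing matches of Ifitm1 and Ifitm6 hold for the RefSeq windows alone.

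Library totals ranged from 2403044 to 7415397 counts. Whether replicates were separate cultures is not in the labels. The p-values thus measure only how far these samples spread, which may be technical variation. MLLT1 guide 1 replicate 1 and MLLT6 guide 1 replicate 3 differed most from the other replicates of their groups, with root mean square log2 differences of 0.677 and 0.586 against 0.321 to 0.524 in the other libraries. Dot1l mRNA fell by 0.71 ± 0.13 (SE) on the log2 scale in its knockout (edgeR adjusted p = 0.000189). The log2 fold changes of Mllt10 and Mllt6 in their own knockouts were -0.76 (adjusted p = 0.139) and -0.90 (adjusted p = 0.496). That of Mllt1 was 0.61 (adjusted p = 0.148), so its mRNA gave the MLLT1 labels no backing. Mllt10 and Mllt6 pointed down but did not pass either. Results for MLLT10, MLLT1 and MLLT6 thus refer to libraries as labelled. No marker on the lists for T cells, B cells, natural killer cells or erythroid cells had enough counts to be tested. In bulk RNA, fewer cells of a type and less RNA per cell cannot be told apart.

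The members spanned a wide range of levels. Of the 47 members, 30 passed the filter on low counts and 17 did not. Levels are given as CPM, the counts of a gene per 1000000 counts of a library after TMM scaling, and between genes only as CPM per kb of exon. In the control, Ifitm2 stood highest at a mean of 288 CPM per kb, followed by Ifitm1 at 206 and Ifitm3 at 159. These are members of the IFITM family, small membrane proteins that hinder the fusion of enveloped viruses with the cell. The next member, Ifi27, stood at 30.6 CPM per kb and the peptide transporter subunit Tap2 at 24.5. Genes often used as a signature of the interferon response lay at the other end, with Isg15, a ubiquitin-like protein, at 1.36 CPM per kb and the antiviral enzyme Rsad2 at 0.179. Ifit1, Oas2, Oasl2, Mx1, Rtp4 and Ifi44 had no count in any control library. The order of neighbours was not firm: Ifitm1 was measured at 174, 219 and 224 CPM per kb and Ifitm2 at 335, 328 and 202 CPM per kb in control replicates 1, 2 and 3, and these ranges overlap through replicate 3 of Ifitm2.

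**Figure D1:**
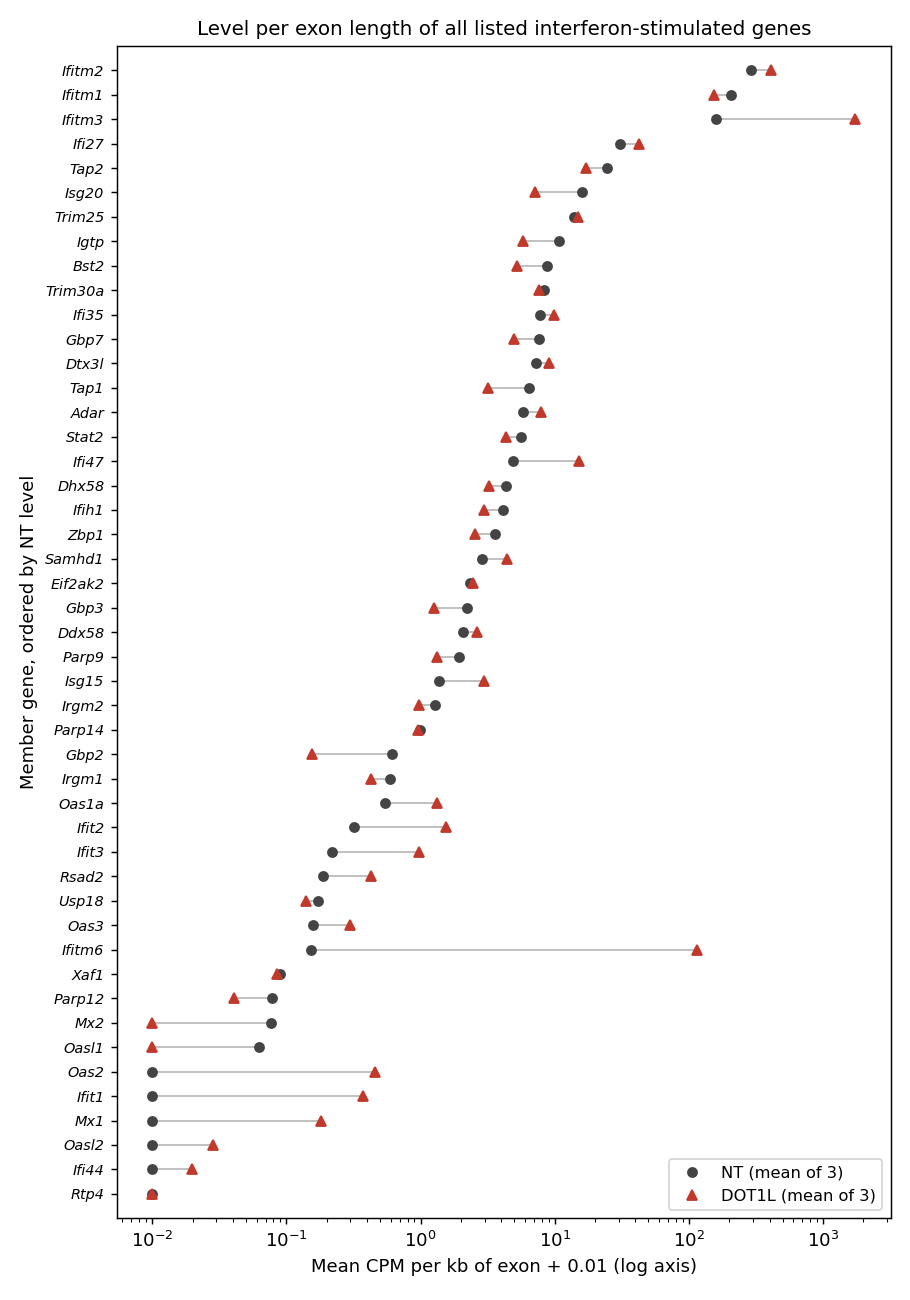
Mean CPM per kb of exon of each interferon-stimulated gene in the control and in the DOT1L knockout, on a log axis with 0.01 added. Ifitm1, Ifitm2 and Ifitm3 sit above the other members in the control, and the OAS, Mx and most IFIT genes sit near the bottom in both groups shown.

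The 4 IFITM genes together supplied 37.5% to 47.4% of all CPM of the 47 members in the control libraries and 71.3% to 72.5% in the DOT1L libraries. Their summed level was 447.5 to 561 CPM in the control and 1581 to 1839 CPM in the DOT1L knockout. The other 43 members summed to 623 to 745 CPM in the control and to 599 to 739 CPM in the DOT1L knockout, so these ranges overlap. The higher total over the list in the DOT1L libraries thus lay in the IFITM genes. The summed IFITM level was 743 to 996 CPM with both MLLT10 guides, 296.5 to 520.1 CPM with both MLLT1 guides and 514 to 929 CPM with both MLLT6 guides.

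In the DOT1L knockout, 2 of the 4 IFITM genes rose and the others did not pass the test. Ifitm3 (ENSMUSG00000025492, mm10 chromosome 7, 141009586 to 141010770), the family member best known for blocking influenza virus in endosomes, was at 1083, 1163 and 1297 CPM in the DOT1L libraries, against 151, 103 and 69.6 CPM in control libraries. Every DOT1L library lay above every control library. It rose by 3.45 ± 0.35 (SE) on the log2 scale, a fold of 10.9 (edgeR's quasi-likelihood test, Benjamini-Hochberg adjusted p = 1.04e-07). Ifitm6 (ENSMUSG00000059108, chromosome 7, 141015699 to 141017924), a further family member, was at 85.1, 124 and 103 CPM in the DOT1L libraries, against 0, 0 and 0.389 CPM in control libraries. The gene was close to silent without the knockout: the DOT1L group held 1159 counts and the control 1 count. The ratio was 855, with an exact 95% interval from 153 to 33780 that covers counting error only (edgeR adjusted p = 2.9e-08). Ifitm6 passed the low-count filter through the DOT1L libraries alone, as did Ifit2.

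Ifitm1 and Ifitm2, which lie in the same cluster on chromosome 7, had smaller log2 fold changes that did not pass. Ifitm1 (ENSMUSG00000025491, chromosome 7, 140967221 to 140969825) was at 139.7, 196 and 169 CPM in the DOT1L libraries, against 190.4, 239 and 245 CPM in control libraries. 1 DOT1L library lay inside the control range, with a log2 fold change at -0.42 ± 0.17 (edgeR adjusted p = 0.0818). Ifitm2 (ENSMUSG00000060591, chromosome 7, 140954837 to 140955987) was at 273, 260.2 and 270.0 CPM against 219.7, 215 and 132 CPM. The groups did not overlap, but 0.50 ± 0.24 on the log2 scale did not pass (edgeR adjusted p = 0.141). Of 50-base stretches in the Ifitm2 transcripts, 48.5% also occur in transcripts of other genes, among them Gm45717, so its level depends on how such reads were counted. That share was 10.0% for Ifitm3, 5.02% for Ifitm1 and 0% for Ifitm6.

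**Figure D2:**
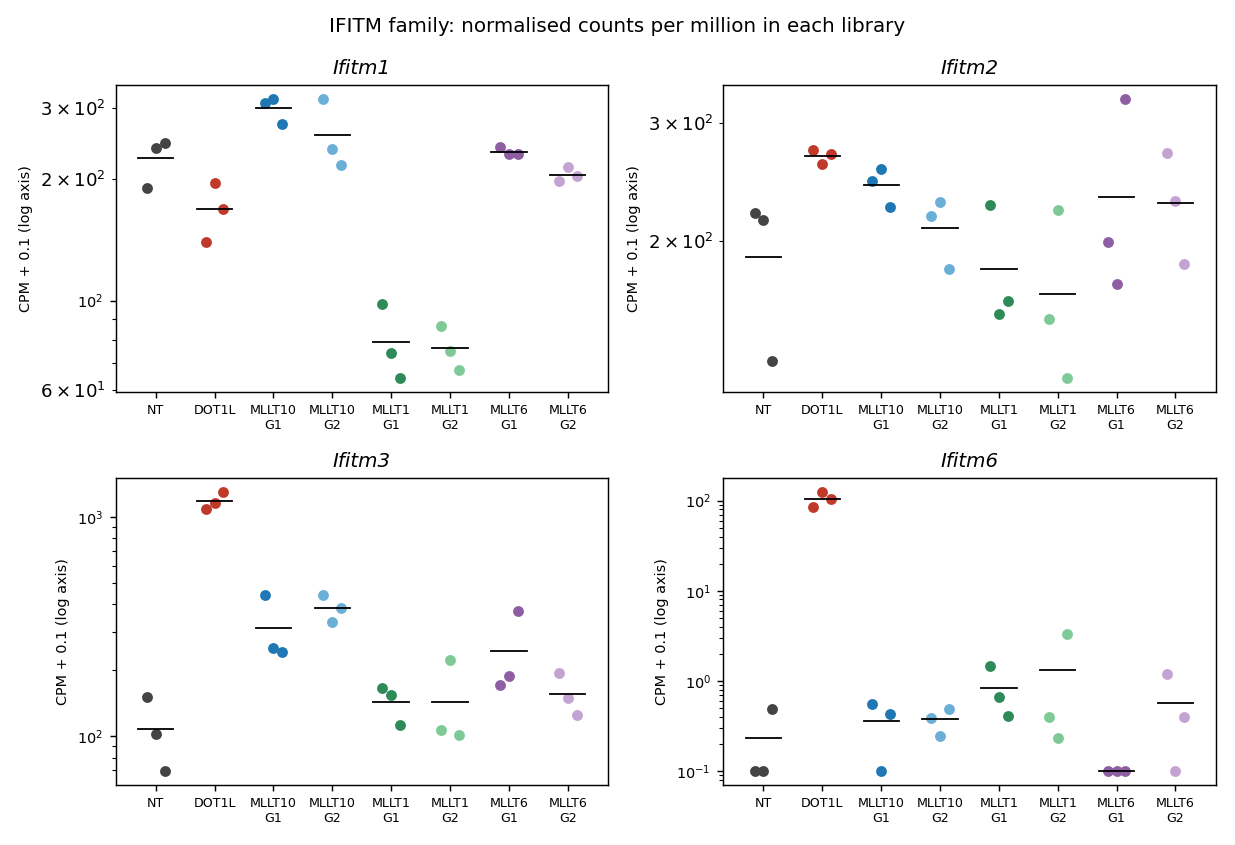
CPM of the 4 IFITM genes in each of the 24 libraries, on a log axis with 0.1 added, where each point is a library and each black line a group mean. Ifitm3 and Ifitm6 are highest in the 3 DOT1L libraries, and Ifitm1 is lowest in the 6 MLLT1 libraries.

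Outside the IFITM family, the members that changed in the DOT1L knockout went in both directions. Ifi47, a GTPase of the immunity-related (IRG) family, rose while Igtp, another GTPase of that family, fell. Ifi47 (ENSMUSG00000078920, chromosome 11, 49076587 to 49096974) was at 31.6, 44.8 and 35.5 CPM in the DOT1L libraries, against 12.8, 12.8 and 10.9 CPM in control libraries. The lowest DOT1L library held more than the highest control library, and it rose by 1.61 ± 0.26 on the log2 scale (edgeR adjusted p = 7.5e-05). Igtp (ENSMUSG00000078853, chromosome 11, 58199556 to 58207591) was at 6.69, 13.2 and 15.5 CPM against 18.96, 26.9 and 19.4 CPM. It fell by 0.86 ± 0.28 on the log2 scale with no overlap between the groups (edgeR adjusted p = 0.0309). The call of Igtp was lost without NT replicate 2 (adjusted p = 0.155), DOT1L replicate 1 (0.145) or DOT1L replicate 2 (0.0553), and when the compared groups were fitted alone (0.0566). Igtp overlaps Irgm2 on the same strand. The other 4 tested GTPases of the IRG and GBP families had log2 fold changes from -0.76 (Gbp3) to -0.25 (Irgm2) and none passed. Among them, Gbp7 was at 23.78, 27.73 and 32.25 CPM in the DOT1L libraries, below all control libraries at 33.39, 37.53 and 56.77 CPM. Irgm1, which regulates IRG GTPases, was at 0.743, 2.84 and 3.74 CPM in the DOT1L libraries, against 2.06, 3.44 and 4.67 CPM in control libraries, which overlap.

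Among enzymes that act on RNA and nucleotides, Samhd1 rose and Isg20 fell. Isg20 (ENSMUSG00000039236, chromosome 7, 78913424 to 78920396), an exonuclease that degrades viral RNA, was at 11.2, 15.3 and 13.5 CPM in the DOT1L libraries, against 18.96, 38.5 and 32.3 CPM in control libraries. All DOT1L libraries lay below the control, and it fell by 1.17 ± 0.29 on the log2 scale (edgeR adjusted p = 0.0043). Samhd1 (ENSMUSG00000027639, chromosome 2, 157097533 to 157135265), which hydrolyses deoxynucleotides, was at 33.4, 45.9 and 41.7 CPM against 28.9, 22.8 and 26.8 CPM. It rose by 0.63 ± 0.20 (edgeR adjusted p = 0.0257). The groups were separate but close, and the call of Samhd1 was lost without NT replicate 2 (adjusted p = 0.133), NT replicate 3 (0.0617), DOT1L replicate 2 (0.111) or DOT1L replicate 3 (0.0794), when the compared groups were fitted alone (0.059), and with no filter on low counts (0.125). Adar, which edits adenosine in double-stranded RNA, was at 63.2, 72.5 and 57.2 CPM against 45.3, 48.8 and 47.4 CPM with no overlap, and its log2 fold change of 0.44 ± 0.21 did not pass (edgeR adjusted p = 0.139). The kinase Eif2ak2 (PKR), which halts translation on sensing double-stranded RNA, stood at 0.085 ± 0.28 on that scale (edgeR adjusted p = 0.88).

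The peptide transporter and the IFIT family each gave a single call. Tap1 (ENSMUSG00000037321, chromosome 17, 34187553 to 34197225), a subunit of the transporter that carries peptides to class I molecules, was at 18.2, 18.1 and 15.9 CPM in the DOT1L libraries, against 31.7, 43.5 and 31.1 CPM in control libraries. It fell by 1.04 ± 0.18 on the log2 scale with no overlap (edgeR adjusted p = 0.000148). Its partner Tap2 spread widely in both groups, 50.5, 45.9 and 96.4 CPM against 77.5, 61.9 and 138 CPM, and did not pass (-0.51 ± 0.72, edgeR adjusted p = 0.688). Tap1 overlaps Psmb9 on the opposite strand, and the counting may not have used strand. Ifit2 (ENSMUSG00000045932, chromosome 19, 34550694 to 34576419), an RNA-binding antiviral protein, was at 5.20, 4.98 and 8.02 CPM against 0, 0.938 and 2.72 CPM. It rose by 2.31 ± 0.82 on these low counts (edgeR adjusted p = 0.0459), and the call was lost without NT replicate 1 (adjusted p = 0.148), NT replicate 2 (0.157), DOT1L replicate 1 (0.0677), DOT1L replicate 2 (0.0653) or DOT1L replicate 3 (0.158), and with the DESeq2 test (0.0557).

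**Figure D3:**
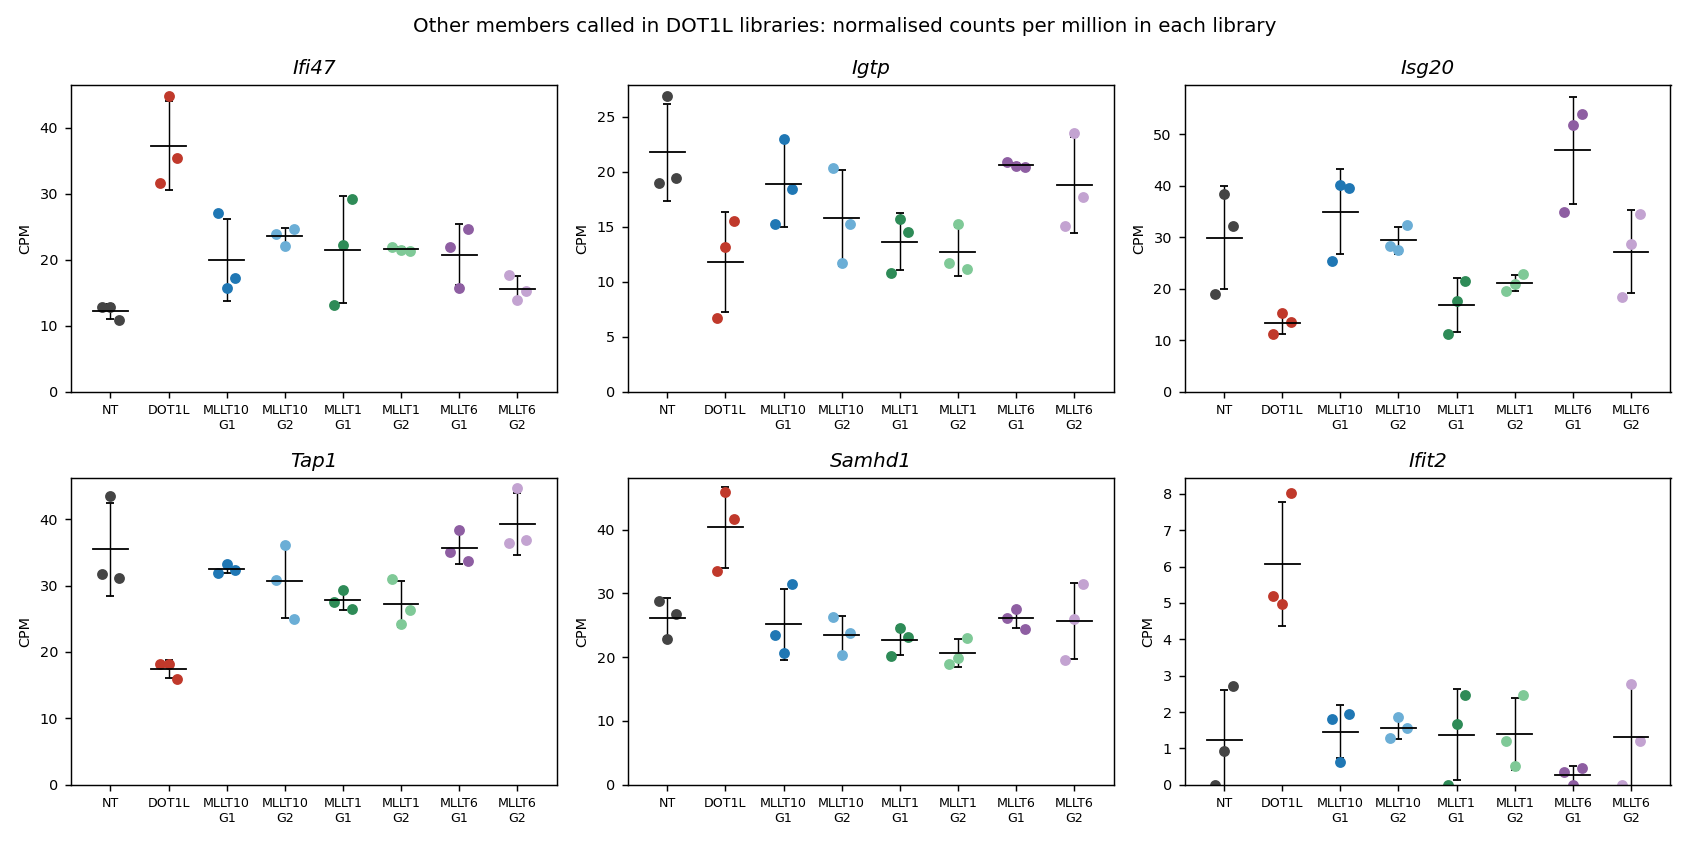
CPM of the 6 members outside the IFITM family that were called in the DOT1L knockout, by group, where points are libraries, lines are means and error bars are the SD of the libraries in a group. Ifi47, Ifit2 and Samhd1 are highest and Tap1, Isg20 and Igtp lowest in the DOT1L libraries by group mean.

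Counted over the list, 5 of the 30 tested members rose in the DOT1L knockout and 3 fell, against a background of 11.2% of all 10578 tested genes higher and 10.7% lower (21.8% in either direction). The 8 members called are 26.7% of the tested members, near that background. Ifitm6 and Ifit2 were tested only because of the DOT1L libraries, and of the 28 other tested members 3 rose and 3 fell (21.4%). The median log2 fold change of the tested members was -0.20, against 0.0067 over all genes, and 13 were above 0 and 17 below. For the 26 tested members outside the IFITM family, the median was -0.31. Without NT replicate 2 or without DOT1L replicate 2, 5 members were called, since Ifit2, Igtp and Samhd1 dropped out. Ifitm3, Ifitm6, Ifi47, Isg20 and Tap1 kept their calls and directions under each alternative that was run for them.

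Markers of neutrophils moved with these changes. All 12 neutrophil markers on the list rose in the DOT1L knockout, where 11.2% of all tested genes were higher and 10.7% lower. Their summed level went from 325 to 413 CPM in the control to 93170 to 107400 CPM. How many of these markers pass the low-count filter without the DOT1L libraries was not checked. Retnlg was the marker with no count in the control, and none was at 0 in the DOT1L group. Of 8 markers of myeloid progenitors, 3 rose and 3 fell, and of 4 tested macrophage markers, 1 rose and 1 fell. Both tested markers of plasmacytoid dendritic cells fell. Of 4 fibroblast markers, Col1a1 was the only one tested and rose by 5.07 ± 0.73, to 17.1 ± 2.71 CPM (SD, n = 3), while Col1a2, Pdgfra and Dcn had no count in the DOT1L group. Outside the DOT1L group the 4 summed to at most 1.505 CPM in any library. Col1a1 thus reached the test through the DOT1L libraries, where it is high. The part of other cell states in the IFITM and other values was not tested.

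Signature genes of the interferon response were low in every group, the DOT1L knockout included. The sum of Ifit1, Ifit3, Oas1a, Oas2, Oas3, Oasl1, Oasl2, Mx1, Mx2, Isg15, Rsad2, Usp18 and Ifi44 was 4.53 to 5.94 CPM in the control and 12.4 to 16.2 CPM in the DOT1L libraries, which do not overlap, and 2.35 to 9.57 CPM in the other knockouts. Isg15 (ENSMUSG00000035692, chromosome 4, 156199424 to 156200818) was at 2.60, 1.78 and 2.32 CPM in the DOT1L libraries, against 0.824, 1.88 and 0.389 CPM in control libraries, and the ranges overlap. Ifit1, which binds foreign RNA caps, had 10 counts in the DOT1L group and 0 in the control. The exact 95% interval of this ratio began at 1.65. The DOT1L libraries stood at 1.11, 1.07 and 0.713 CPM for Ifit1. Oas2, a synthetase that activates RNase L, had 24 counts against 0, with an interval beginning at 4.44, and stood at 2.60, 0.711 and 2.67 CPM. With no filter on low counts, Oas2 was called (edgeR adjusted p = 0.0196). That fit did not call Ifit1 (adjusted p = 0.118), Mx1 (0.197), Ifit3 (0.358) or Isg15 (0.544). It also did not call Oas1a (0.449), Oas3 (0.717) or Rsad2 (0.524). Mx1, a GTPase that blocks influenza virus, had 11 counts against 0, with an interval beginning at 1.85. All of these counts came from DOT1L replicate 3 at 1.96 CPM. Such intervals cover counting error only.

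Ifit3 had 18 counts against 3, a ratio of 4.42 with an exact 95% interval from 1.29 to 23.4. Oasl1 and Mx2 had no count in the DOT1L group and 1 and 2 counts in the control, and Rtp4 had none in either group. For Usp18, a protease that removes ISG15, Oasl2, Parp12, Xaf1 and Ifi44, as for these 3, no difference from the control was detectable at this depth. The sum of signature genes left out Gbp2, Parp12, Xaf1 and Rtp4. Gbp2, a GTPase of the GBP family, went the other way, with 3 counts in the DOT1L group and 14 in the control. The fit with no filter on low counts did not call it (edgeR adjusted p = 0.2243).

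In the MLLT10 knockout, Ifitm3 was the member that rose. It was at 441, 253 and 243 CPM under guide 1 and 442, 331 and 386 CPM under guide 2, above all 3 control libraries. The rise was 1.69 ± 0.30 on the log2 scale with both guides (edgeR adjusted p = 0.00721). Guide 2 alone gave 1.84 ± 0.33 (adjusted p = 0.013), and guide 1 alone gave 1.53 ± 0.33, which did not pass (adjusted p = 0.0586). The call depended on the control: without NT replicate 2 the log2 fold change was 1.65 (adjusted p = 0.103), and without NT replicate 3 it was 1.46 (adjusted p = 0.107). With 1 of 30 tested members called (3.33%), 0.473% of all tested genes were called in this comparison, 0.17% with guide 1 alone and 0.303% with guide 2 alone. The median log2 fold change of the tested members was -0.047, with 15 above 0 and 15 below.

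No other member passed the test with MLLT10 targeted. Ifi47 was at 27.03, 15.7 and 17.2 CPM under guide 1 and 23.9, 22.1 and 24.6 CPM under guide 2, above the control, but 0.83 ± 0.24 on the log2 scale did not pass (edgeR adjusted p = 0.152). Ddx58 (RIG-I), a sensor of viral RNA, was below the control in all 6 libraries at 8.28 to 11.4 CPM, with a log2 fold change of -0.56 ± 0.21 (adjusted p = 0.33). Ifitm6 lay within 0 to 0.453 CPM. Of the 12 neutrophil markers, 5 rose in this knockout, where 0.236% of all tested genes did (the 5 were Fcnb, Ltf, Camp, S100a8 and S100a9), and all 12 came to a summed level of 786 to 1123 CPM against 325 to 413 CPM in the control. Their part in the rise of Ifitm3 was not tested.

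In the libraries labelled MLLT1, Ifitm1 fell with either guide. It was at 97.9, 74.05 and 64.4 CPM under guide 1 and 86.7, 74.9 and 67.4 CPM under guide 2, against 190.4, 239 and 245 CPM in the control. The highest MLLT1 library held less than any control library. The fall was 1.54 ± 0.14 on the log2 scale, to a fold of 0.344 (edgeR adjusted p = 5.24e-07), and it was 1.52 with guide 1 (adjusted p = 2.2e-05) and 1.56 with guide 2 (adjusted p = 1.11e-05). The call held under all 15 alternatives run for it, with log2 fold changes from -1.65 to -1.46.

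The neighbouring IFITM genes did not pass in these libraries. Ifitm3 was at 166, 154 and 112 CPM with MLLT1 guide 1 and at 107, 222 and 101 CPM with guide 2, which overlaps the control (0.42 ± 0.29, edgeR adjusted p = 0.534). Ifitm2 ranged over 125 to 226 CPM (-0.12 ± 0.21, adjusted p = 0.837). Ifitm6 had 24 counts over 6 MLLT1 libraries against 1 in the control, a ratio of 6.93 with an exact 95% interval from 1.13 to 285, and most of its level came from guide 2 replicate 3 at 3.22 CPM.

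Across the tested members, 1 of 30 was called with MLLT1 targeted (3.33%), against 2.58% of all tested genes in either direction and 1.61% lower. With guide 1 alone and with guide 2 alone, 1.25% and 1.22% of all tested genes were called. The median log2 fold change was -0.32, against 0.0063 over all genes, and 7 members were above 0 and 23 below. An unadjusted p under 0.05 was found for 9 members, and for 15.4% of all tested genes. Igtp was below the control in all 6 libraries at 10.8 to 15.7 CPM (-0.72 ± 0.24, edgeR adjusted p = 0.128), and so was Tap1 at 24.2 to 31 CPM (-0.37 ± 0.15, adjusted p = 0.215). Ifi47 was above it at 13.1 to 29.3 CPM (0.83 ± 0.24, adjusted p = 0.0654), and Isg20 at 11.1 to 22.8 CPM overlapped it (-0.67 ± 0.24, adjusted p = 0.147). A further member was called when a library was left out: Isg20 without NT replicate 1 and Ifi47 without MLLT1 guide 1 replicate 1. Ifi47 was also called by the DESeq2 test. Of the 12 neutrophil markers, 8 rose, where 0.974% of all tested genes did, to a summed level of 1845 to 2369 CPM. Their part in the fall of Ifitm1 was not tested.

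With MLLT6 targeted, no member passed edgeR's quasi-likelihood test, as for all other genes of the table (0 of 10578, 0%). An unadjusted p under 0.05 was found for 3 members and for 6.87% of all tested genes, and the DESeq2 test also called 0 members. Those members were Ifitm3 (0.86 ± 0.29, edgeR adjusted p = 0.699), Ifi47 (0.57 ± 0.24) and Ddx58 (-0.47 ± 0.21). Ifitm3 was at 171, 189 and 372 CPM under guide 1 and 194, 149 and 126 CPM under guide 2, which overlaps the control, and its highest value was that of guide 1 replicate 3, a library that stood apart. It was the sole member called with no filter on low counts. Ifitm1 was at 239.6, 230.5 and 231 CPM under guide 1 and 198, 214 and 204 CPM under guide 2, within or near the control range. The median log2 fold change of the tested members was 0.0095, with 16 above 0 and 14 below. None of the 12 neutrophil markers was called, and they summed to 296 to 738 CPM.

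**Figure D4:**
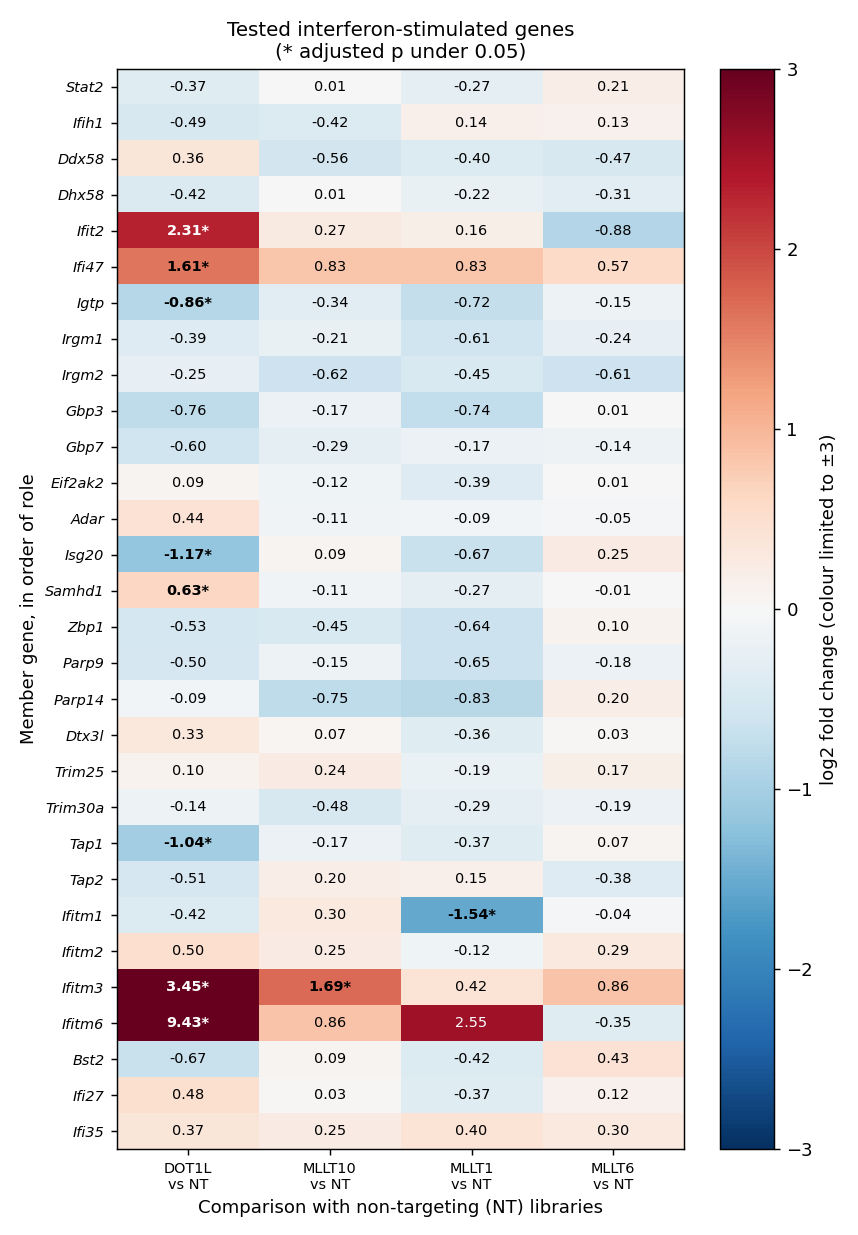
Log2 fold change against the control of the 30 tested members in the 4 knockouts, with colour limited to 3 in either direction and a star where the edgeR adjusted p was under 0.05. Stars mark 8 members in the DOT1L knockout, Ifitm3 in the MLLT10 knockout, Ifitm1 with MLLT1 targeted and none with MLLT6 targeted.

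The 4 comparisons above share the 3 control libraries, so the knockouts were also compared with each other. Against the DOT1L knockout, 11 members differed in the MLLT10 knockout, 13 with MLLT1 targeted and 13 with MLLT6 targeted, where 23.5%, 19.6% and 29.3% of all tested genes were called. Each of these counts includes Ifitm6 and Ifit2, which were tested only because of the DOT1L libraries, where they are high. Set against its level in the DOT1L knockout, Ifitm3 was lower, with a log2 fold change of -1.76 ± 0.27 with MLLT10 targeted (edgeR adjusted p = 2.21e-05), -3.04 ± 0.27 with MLLT1 (adjusted p = 9.8e-09) and -2.60 ± 0.27 with MLLT6 (adjusted p = 6.69e-08). Ifitm6, Ifi47, Ifit2, Samhd1, Ddx58 and Adar were also called lower, and Tap1 called higher, than in the DOT1L knockout in each of these 3 comparisons. Samhd1, Ifitm3, Ifitm6 and Tap1 kept these calls under all 15 alternatives run for each comparison. Adar lost its call in 5, 6 and 7 of the 9 fits that left out 1 library, for MLLT10, MLLT1 and MLLT6, among them those without DOT1L replicate 1 or 2. For MLLT10 and for MLLT1, Ifit2 lost its call without DOT1L replicate 3 and Ifi47 without DOT1L replicate 2, and Ddx58 lost it for MLLT1 without DOT1L replicate 2 and with no filter on low counts. These counts moved with 1 library left out: the MLLT1 count was 7 without DOT1L replicate 2, and the MLLT6 count was 8 without MLLT6 guide 2 replicate 2.

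Ifitm1 set the MLLT1 libraries apart from every other knockout. It was lower with MLLT1 targeted than in the DOT1L knockout, at -1.12 ± 0.14 on the log2 scale (edgeR adjusted p = 2.82e-06) and than with MLLT6 targeted, at -1.499 ± 0.12 (adjusted p = 4.58e-08). In the MLLT10 knockout it was higher than with MLLT1 targeted by 1.84 ± 0.12 (adjusted p = 1.52e-09). Between MLLT10 and MLLT1, 3 members were called against 2.68% of all tested genes (1.49% higher with MLLT10), all higher with MLLT10: Ifitm1, Ifitm3 (1.27 ± 0.23, adjusted p = 0.00172) and Isg20 (0.76 ± 0.19, adjusted p = 0.0296). The Isg20 call was lost in 9 of the 12 fits that left out 1 library, all but those without MLLT10 guide 1 replicate 1, MLLT1 guide 1 replicate 3 or MLLT1 guide 2 replicate 3, and without both libraries that stood apart. The DESeq2 test called 5.

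Between MLLT1 and MLLT6, 6 members were called, all lower with MLLT1 (20% of those tested, against 4.46% of all tested genes in either direction and 2.68% lower). Besides Ifitm1 these were Zbp1, a sensor of Z-form nucleic acid (-0.75 ± 0.21, edgeR adjusted p = 0.0403), Parp14, an ADP-ribosyltransferase (-1.04 ± 0.26), Tap1 (-0.45 ± 0.12), Isg20 (-0.93 ± 0.19) and Ifi27 (-0.49 ± 0.12). Of the 12 fits that left out 1 library, the call was lost in 9 for Zbp1, 7 for Tap1, 5 for Parp14, 4 for Ifi27 and 0 for Ifitm1 and Isg20. That count was 2 without MLLT1 guide 2 replicate 3 or without both libraries that stood apart, and 3 without MLLT1 guide 1 replicate 3, MLLT6 guide 2 replicate 2 or MLLT6 guide 2 replicate 3. Fitting those groups alone also gave 3. Between MLLT10 and MLLT6, edgeR called 0 members, where it called 0.766% of all tested genes. An unadjusted p under 0.05 was found for 5 members and for 10.4% of all tested genes. The DESeq2 test called 2 members (Ifitm3 and Parp14), and no share over all genes is given for that test. With edgeR, leaving out MLLT6 guide 1 replicate 3 added Ifitm3, and leaving out MLLT10 guide 2 replicate 2 added Parp14.

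Guides of the same gene were compared with 3 libraries each, a number at which a moderate difference can be missed. No member was called between the guides of MLLT10, MLLT1 or MLLT6 by edgeR or by the DESeq2 test, and no other gene was called by edgeR (0%). At an unadjusted p under 0.05 the numbers of members were 0, 0 and 4, and 1.72%, 2.10% and 9.29% of all tested genes. The log2 difference of Ifitm1 between the MLLT1 guides was -0.044 ± 0.17 and that of Ifitm3 between the MLLT10 guides was 0.31 ± 0.32, each given as guide 2 against guide 1.

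The replicate number left a mark on some members. Compared with replicates 2 and 3 over all groups, replicate 1 had lower Tap2 (-1.32 ± 0.30 on the log2 scale, edgeR adjusted p = 0.00644), Isg20 (-0.52 ± 0.10), Stat2 (-0.35 ± 0.11) and Gbp7 (-0.31 ± 0.10). These 4 members are 13.3% of those tested, beside 7.03% of all tested genes that were lower in replicate 1. The calls of Stat2 and Gbp7 were lost with no filter on low counts, and that of Gbp7 also with DESeq2 size factors. The labels do not say what the number stands for. Tap2 spread widely within groups, for example 13.1, 56.4 and 172 CPM in replicates 1, 2 and 3 of MLLT1 guide 1.

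The remaining roles showed no call against the control in any knockout. Stat2 (ENSMUSG00000040033, chromosome 10, 128270559 to 128292849), the subunit of ISGF3 on the list, was at 23.04, 22.8 and 31.5 CPM in the DOT1L libraries, against 27.6, 43.5 and 29.2 CPM in control libraries, which overlap (-0.37 ± 0.25, edgeR adjusted p = 0.331). Its level lay within 21.97 to 51.8 CPM in the 6 guide groups. The RNA sensors Ifih1 (MDA5), Ddx58 and Dhx58 had log2 fold changes of -0.49, 0.36 and -0.42 in the DOT1L knockout. All DOT1L libraries lay above the control for Ddx58, at 15.61, 21.33 and 18.71 CPM against 13.19, 14.7 and 15.55 CPM. The ubiquitin ligases Trim25, which acts with RIG-I, and Trim30a stood at 0.10 and -0.14, and Dtx3l, Parp9 and Parp14, ligase and ADP-ribosylation factors, between -0.50 (Parp9) and 0.33 (Dtx3l). Bst2 (tetherin), which holds budding virus at the membrane, was at 4.83, 1.78 and 7.48 CPM in the DOT1L libraries against 8.24, 10.6 and 4.67 CPM (-0.67 ± 0.44). Ifi27 just missed the threshold there (0.48 ± 0.17, edgeR adjusted p = 0.0507), with all 3 DOT1L libraries above the control.

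Upstream of these genes, no transcript of the listed interferons was seen. The 9 listed ligands, Ifnb1, Ifng and members of the alpha, kappa and lambda types, had 0 counts in all 24 libraries, which allows up to 3 counts over a group. None of the 5 tested receptor genes was called by edgeR against the control, and 1, 0, 0 and 1 had an unadjusted p under 0.05 with DOT1L, MLLT10, MLLT1 and MLLT6 targeted. Among JAK-STAT genes, the phosphatase Ptpn6 rose in the DOT1L knockout by 0.75 ± 0.27 on the log2 scale (edgeR adjusted p = 0.049), and Stat3 rose by 0.55 ± 0.19 (adjusted p = 0.0389). Irf9, the DNA-binding subunit of ISGF3, stood at 14.3 ± 2.48 CPM in the control and 14.9 ± 0.879 CPM in the DOT1L libraries. Of 7 tested IRF genes, Irf8, which directs monocyte and dendritic cell fate, fell by 1.75 ± 0.26 (adjusted p = 2.78e-05). In the DOT1L knockout 11.2% of all tested genes were higher and 10.7% lower.

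Of 10 tested genes of class I antigen presentation, 2 fell in the DOT1L knockout and none rose, where 10.7% of all tested genes were lower and 11.2% higher. H2-K1, a class I heavy chain, fell from 258 ± 25.9 to 71.1 ± 15.2 CPM (-1.86 ± 0.17, edgeR adjusted p = 2.39e-08), and Psmb8, an immunoproteasome subunit, fell from 110.1 ± 14.6 to 39.5 ± 3.59 CPM (-1.49 ± 0.17, adjusted p = 6.37e-07). On the list 9 of 10 were below 0, and the median was -0.31. With MLLT10, MLLT1 or MLLT6 targeted no gene of the class I list was called by edgeR. An unadjusted p under 0.05 was found for 2, 3 and 0, and for 9.58%, 15.4% and 6.87% of all tested genes. With MLLT1 targeted, 1 gene of the JAK-STAT list, the feedback inhibitor Socs3, fell by 1.49 ± 0.32 (adjusted p = 0.011), where 1.61% of all tested genes were lower.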

How the data were processed

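Raw read counts per gene, whole numbers for 24 libraries in a single table, were deposited by the authors. Per the submitters' processing notes, bcl2fastq, HISAT2, HTSeq and DESeq2 were used with mm10. The annotation, tool versions and strand setting were not given in the sources used here, and reads of genes that overlap on opposite strands cannot be told apart. Groups and replicate numbers came from the sample titles. Symbols and positions came from GENCODE M21 (GRCm38, the assembly of mm10), which named 42548 of the 43629 identifiers, and promoter windows came from RefSeq on GRCm38.p6, where 36 of 47 members matched.

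All genes were fitted together with edgeR 4.0.16 in R 4.3.3: TMM scaling, edgeR's filter on low counts by group (10578 genes kept) and 1 quasi-likelihood fit over 8 groups of the same cells, day and protocol, with 1 shared estimate of spread. Calls are Benjamini-Hochberg adjusted p-values under 0.05 over all tested genes. Both guides of a gene were averaged in its comparison, and each guide was also tested alone. SE was worked back from edgeR's F statistic and is approximate where a group holds few counts. Levels are TMM-scaled CPM computed from the counts, as mean ± SD. A ratio against a group with 0 counts is given by the lower end of its exact 95% interval, and ratios against 1 to 3 counts by the whole interval. Replicates of a group differed by a chi-square per gene of 4.76 to 34.3, above sampling noise. All libraries were kept in the main fit, including both that stood apart.

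The members, the role, pathway and marker lists and the comparisons were chosen with earlier results of these data known. Library values are given for each member called against the control, the 3 members of highest mean CPM, and Stat2, Isg15, Ifit1, Oas2, Mx1 and Irgm1. Of the pathway lists, up to 4 called genes with the smallest adjusted p are named, and 1 gene that the rule took is not reported here. Alternatives were the replicate number as a block, no filter, size factors and then the test of DESeq2 1.42.0, the compared groups alone, leaving out each library, and leaving out both libraries that stood apart. Python 3.11.15 with scipy 1.17.1, pandas 2.3.3 and matplotlib 3.10.9 made the tables and figures.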

Additional observations from a re-analysis of the deposited data

How the results depend on the processing

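The 10 calls of members against the control were recomputed under each alternative, which gave 126 values. Of these, 108 were still called in the same direction, 18 were not, and 0 reversed. Leaving out 1 library at a time moved the number of called members to between 5 and 8 for DOT1L against the control (8 with all libraries), 0 and 1 for MLLT10 (1), 1 and 2 for MLLT1 (1), 7 and 12 for MLLT1 against DOT1L (13), 8 and 13 for MLLT6 against DOT1L (13), 0 and 1 for MLLT10 against MLLT6 (0), and 2 and 6 for MLLT1 against MLLT6 (6). Without both libraries that stood apart, the counts were 2 for MLLT1 against the control, where Ifi47 was added, 1 for MLLT10 against MLLT6, where Ifitm3 was added, and 2 for MLLT1 against MLLT6. With no filter on low counts, 1 member was called for MLLT6 against the control (Ifitm3), 3 for MLLT10 against MLLT6 and 1 between the MLLT6 guides (Tap2). That fit also tested all 17 members of low count, of which Oas2 was called in the DOT1L knockout. The DESeq2 test called 2 members for MLLT1 against the control, 5 for MLLT10 against MLLT1 and 2 for MLLT10 against MLLT6. The compared groups alone gave 3 for MLLT1 against MLLT6. The cause of these shifts was not tested, beyond the fewer samples or other genes that each setting holds. Scaling by DESeq2 size factors moved the median of all genes by less than 0.01 on the log2 scale.

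With the replicate block, 10 members were called in the DOT1L knockout (Gbp7 and Ifi27 were added), 2 with MLLT1 targeted (Isg20 was added) and 1 between MLLT10 and MLLT6 (Parp14). The replicate numbers were not taken as pairing the libraries: deviations of same-numbered libraries correlated above 0.1 for every number in 6 of 28 pairs of groups, and in 3 of 7 with the control.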

Other observations

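A longer list of 49 further genes known to respond to interferon held 25 with enough counts to be tested, and it too went in both directions in the DOT1L knockout: 4 rose and 5 fell (16% and 20% of those tested, beside 11.2% of all tested genes higher and 10.7% lower), and the median log2 fold change was -0.0028. Cmpk2, a mitochondrial nucleotide kinase, rose from 3.96 ± 1.80 to 45.7 ± 7.99 CPM (SD, n = 3 each; 3.56 ± 0.37 on the log2 scale, edgeR adjusted p = 1.67e-07). Of the Schlafen genes, which act in growth control and antiviral defence, Slfn1 stood at 0.137 ± 0.238 CPM in the control and at 25.4 ± 5.90 CPM in the DOT1L libraries (edgeR adjusted p = 4.43e-07), and Slfn2 rose from 3.76 ± 2.87 to 29.6 ± 4.47 CPM (3.02 ± 0.49). Slfn1 was close to silent in the control, and whether it passes the low-count filter without the DOT1L libraries was not checked. Ly6e, a surface protein that restricts coronaviruses, fell by 1.54 ± 0.16 (edgeR adjusted p = 1.7e-07). The summed level of the 49 genes was 1714 to 1874 CPM in the DOT1L libraries, below the 2167 to 2566 CPM of the control. With MLLT1 targeted, Cmpk2 rose by 1.43 ± 0.35 (edgeR adjusted p = 0.0273) and the secreted glycoprotein Lgals3bp fell by 1.48 ± 0.27 (adjusted p = 0.00245). No gene of this list was called by edgeR in the MLLT10 or MLLT6 knockout. An unadjusted p under 0.05 was found there for 3 and 2, and for 9.58% and 6.87% of all tested genes.

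Genes of nucleic acid sensing also changed in the DOT1L knockout in both directions, 4 up and 2 down of 11 tested, where 21.8% of all tested genes were called. The kinase Ikbke, which activates IRF3, rose by 2.66 ± 0.29 on the log2 scale (edgeR adjusted p = 3.21e-07), the adaptor Myd88 of Toll-like receptors by 1.14 ± 0.19 (adjusted p = 7.55e-05) and the ubiquitin ligase Traf3 by 1.11 ± 0.21 (adjusted p = 0.000392). Tmem173 (STING), the adaptor for cytosolic DNA, fell by 1.08 ± 0.18 (adjusted p = 8.4e-05). None of the 11 was called by edgeR with MLLT10, MLLT1 or MLLT6 targeted. An unadjusted p under 0.05 was found there for 0, 1 and 2, and for 9.58%, 15.4% and 6.87% of all tested genes.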
